A study of Mus musculus with 12 samples.

Results

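MiR-375, a microRNA (miRNA) known for its abundance in pancreatic islets, was examined in islets of adult mice whose mothers had eaten a low-protein diet in pregnancy. It was taken by its name on a real-time PCR panel, where 1 spot carried it, among 750 miRNA spots with 687 distinct miRNA names. No spot of a starred miR-375 strand was on the panel. The LP0.5 group was 6 islet samples from male C57BL/6 offspring of dams kept on the low-protein diet (LP0.5) for the whole of pregnancy, and the Control group was 6 islet samples from male C57BL/6 offspring of dams on a control diet. Offspring of both groups were 2 to 3 months old, and their islets were hand-picked and kept overnight in culture medium before total RNA was extracted. The labels do not say whether a sample came from 1 animal or from several. The samples enter the data used here only through 1 ratio per spot, headed as L.05 against Control in the authors' deposited table, with no per-sample value and no error, and how samples were averaged into it is not given in the sources used here.

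MiR-375 is expressed in the beta and alpha cells of the islet and in other neuroendocrine cells, such as those of the pituitary and gut. In mouse beta cells it lowers glucose-stimulated insulin release. It does so in part by repressing Mtpn (myotrophin, which acts in granule exocytosis). Another of its targets is Pdpk1 (a kinase of the insulin signalling pathway, also called PDK1). Mice without miR-375 have fewer beta cells and more alpha cells, and high blood glucose. These points are background and were not measured here.

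The gene that makes miR-375 lies outside protein-coding genes. In RefSeq's mouse annotation on build GRCm38.p6, the Mir375 hairpin is at chr1:74900658-74900721 on the minus strand, between Cryba2 and Cfap65 (the nearest protein-coding genes on each side), and 0 other annotated genes overlap it. The hairpin is shown because both strands of miR-375 are cut from it. It has 64 bases, 67.2% of them G or C, and the capitals mark the RefSeq strand miR-375-5p, at bases 5 to 26 counted from the hairpin's 5′ end.

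Mir375 hairpin: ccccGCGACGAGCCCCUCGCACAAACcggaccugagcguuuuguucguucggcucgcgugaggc

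The panel's assay is named for human miR-375 with no arm, the older name of the strand now called miR-375-3p, so the ratio below is not for the strand in capitals.

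MiR-375 was listed slightly above 1, relative to U6. Its ratio in the authors' deposited table was 1.17, a log2 ratio of 0.23, which by the heading is a higher level in LP0.5 islets than in Control islets. With 1 value and no replicate behind it, no test of this difference was run, and its size cannot be set against the spread between animals. The direction rests on the heading alone. The study is known for naming miR-199a-3p among the miRNAs raised in low-protein islets, and the authors' deposited table lists miR-199a-3p at 0.422, on the other side of 1. That is 1 miRNA, and the direction was checked against no other. If the heading were reversed, the miR-375 value would be a lower level in LP0.5 islets. In whole islets, a difference in the number of endocrine cells and one in miR-375 per cell cannot be told apart. Threshold cycles, and with them the level of miR-375 and its rank by abundance, were not analysed here, so its place as the main islet miRNA was not checked in these samples.

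The size of the ratio was in the range of the small RNA controls. MiR-375 sits in the A set, a group of 8 blocks of assays in which each of 5 controls (U6, snoRNA135, snoRNA202, U87 and Y1, small RNAs of the nucleus or cytoplasm that are not miRNAs) was spotted 8 times. In this set 13 of 40 control spots were listed above the ratio of miR-375, none of them U6. They were 5 of 8 spots of snoRNA135, 5 of 8 of Y1, 2 of 8 of U87 and 1 of 8 of snoRNA202. All 8 U6 spots lay below miR-375, from 0.961 to 1.02 in the authors' deposited table, and their mean log2 ratio was 0.00, which makes U6 the reference of the listed ratios. Of the 32 control spots other than U6, 29 were themselves listed above 1. The pooled SD of repeated control spots in the A set, U6 included, was 0.15 on the log2 scale. The log2 ratio of miR-375 was equal to 1.51 such SDs. Taken by control, the SD ran from 0.03 for U6, the reference, to 0.25 for snoRNA135. The pooled SD covers spots of the same control within the panel and not the differences between animals.

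Within its own block miR-375 gave the same picture. In the authors' deposited table the control spots of that block were listed at 0.961 for U6, 1.03 for U87, 1.10 for snoRNA202, 1.18 for Y1 and 1.30 for snoRNA135. Divided by these, the ratio of miR-375 was 1.22 relative to U6, 1.14 relative to U87, 1.07 relative to snoRNA202, 0.996 relative to Y1 and 0.899 relative to snoRNA135. It was thus above 1 against U6, U87 and snoRNA202, and below 1 against Y1 and snoRNA135. The plant assay ath-miR159a, which has no mouse target, had no ratio in that block and had one at 2 of its 8 spots in the A set.

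**Figure D1:**
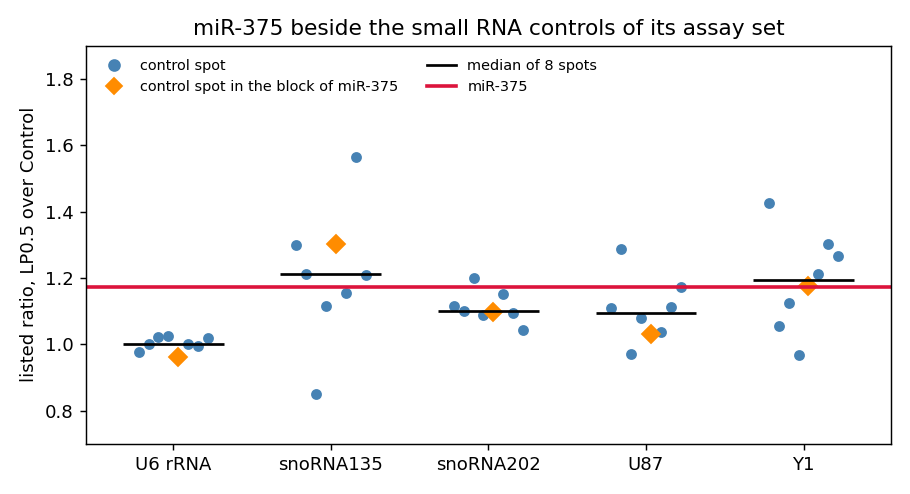
Listed ratio (LP0.5 over Control, vertical axis, linear) of each of the 40 control spots of the A set, by control. Black bars are medians of 8 spots, orange diamonds are spots in the block of miR-375, and the red line is miR-375 at 1.17, which passes above all U6 spots and among the spots of the other 4 controls.

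The value of miR-375 depended on the reference. With the mean of snoRNA135, snoRNA202, U87 and Y1 in the A set as the reference, its ratio was 1.02 (log2 0.03), since these controls averaged 0.20 on the log2 scale relative to U6. With the median miRNA spot of the A set as the reference, its ratio was 1.20 (log2 0.26). The value stayed above 1 under each of these references, between 1.02 and 1.20, and below it against the Y1 and snoRNA135 medians taken singly, at 0.981 and 0.967.

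Most miRNA spots of the A set had a lower ratio than miR-375. Of 377 miRNA spots in the set, 304 had a ratio, with a median of 0.976 and a range from the 25th to the 75th percentile of 0.796 to 1.19. Among the other 303 spots, 221 (72.9%) were lower and 82 were higher, so miR-375 stood inside the middle part of the distribution, near its upper end. With the heading reversed, 27.1% would be lower and it would stand near the lower end. By distance from 1 in either direction, 187 of the other spots (61.7%) lay farther out than miR-375. MiR-375 was not at least 1.5-fold from 1, a limit that 88 of the 304 spots (28.9%) passed, 40 of them (13.2%) above 1. The listed ratios of the set ran from 0.0209 to 3.6e+07. Spots were not filtered for detection, so these shares are not shares of miRNAs that differed between the groups. Within its block, 32 of 41 other miRNA spots were lower.

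**Figure D2:**
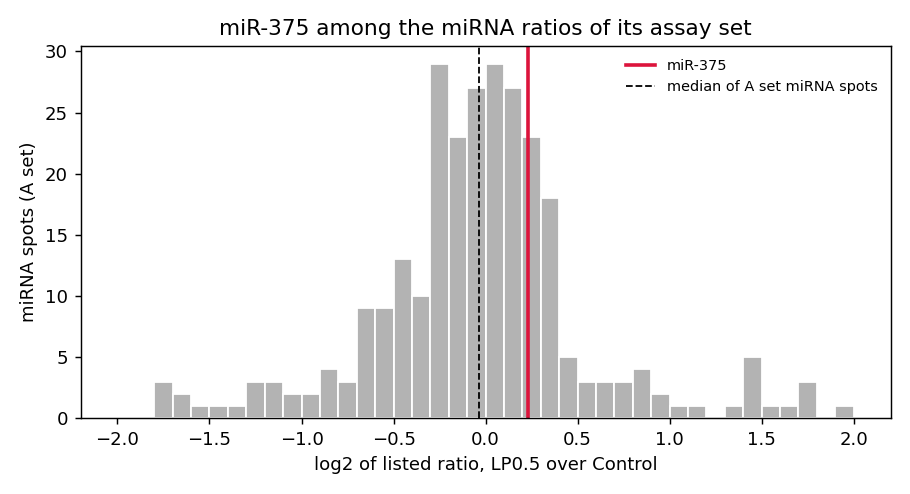
Number of miRNA spots of the A set (vertical axis) by log2 of the listed ratio, LP0.5 over Control (horizontal axis). The red line is miR-375 at 0.23 and the dashed line is the median of the set; 276 spots are drawn and 28 lie beyond 2 on either side.

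How closely a second assay would repeat this value is not known, as miR-375 had 1 assay. Of 9 miRNA names with a pair of assays in the A set, 8 pairs lay farther apart than miR-375 lay from 1, with a median distance of 1.48-fold. Across both sets it was 28 of 38 pairs. Paired assays can differ in the sequence they detect, so these distances hold more than measurement error.

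The 5 miRNA spots of the A set nearest in ratio were let-7a, miR-100, miR-532-3p, miR-676 and miR-671-3p. In the authors' deposited table they were listed at 1.17, 1.17, 1.18, 1.17 and 1.16, each within 0.01 of miR-375 on the log2 scale. Likeness here is closeness of a single ratio, not of a pattern across samples.

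Among islet-enriched miRNAs, miR-375 ranked 3 of 18 from the highest ratio down, which would be rank 16 if the heading were reversed. Relative to U6, 11 of the 18 had a ratio above 1, with a median ratio of 1.06, beside 266 of 528 miRNA names above 1 and a median of 1.01 over the whole panel. Relative to the other 4 controls, 13 of the 18 had a ratio below 1, with a median log2 ratio of -0.10 in place of 0.09. That reference lowers every A set spot alike, and 70.4% of all A set miRNA spots and 62.7% of all miRNA names were then below 1. Above miR-375 were miR-183, a member of a sensory and neuroendocrine cluster, at 1.45, and miR-204, made from an intron of Trpm3 and a repressor of the insulin gene activator MafA, at 1.26, both in the authors' deposited table. Just below it in the authors' deposited table were miR-182 at 1.15 and miR-184 at 1.15. In mice miR-184 represses Argonaute2, the protein through which miR-375 acts. The ratio of miR-375 was 1.02 times that of either. At the low end, miR-7b was the only member at least 1.5-fold from 1 relative to U6, at 0.523 in the authors' deposited table. Of all names 36.4% were that far from 1, and of A set miRNA spots 28.9%. The ratio of miR-375 was 2.24 times that of miR-7b. MiR-7a, an islet miRNA that restrains insulin release in mice, was at 0.918 in the authors' deposited table.

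Of the miRNAs known to act on insulin secretion, miR-375 was 1 of 5 listed above 1 relative to U6. Of 16 members, 15 had a ratio, and miR-33 was not matched to a spot. Relative to U6, 10 of the 15 had a ratio below 1, beside 262 of 528 names on the whole panel. All 15 sat in the A set, where 159 of 304 miRNA spots (52.3%) were below 1. The list's median was 0.905. With the other 4 controls as the reference, 12 had a ratio below 1, miR-375 was 1 of the 3 above it, and the list had a median log2 ratio of -0.34, beside the same 70.4% of A set spots below 1. Higher than miR-375 were miR-124, which acts on Foxa2 in beta cells, at 1.27, and miR-204, both from the authors' deposited table. The others above 1 relative to U6 were miR-29a, which represses the lactate transporter Mct1 in beta cells, at 1.04 and miR-187 at 1.03 in the authors' deposited table. The farthest below were miR-9, a repressor of Onecut2, at 0.558 and the p53-induced miR-34a at 0.679 in the authors' deposited table. MiR-375 ranked 3 of 15 from the highest ratio down, which would be rank 13 if the heading were reversed.

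**Figure D3:**
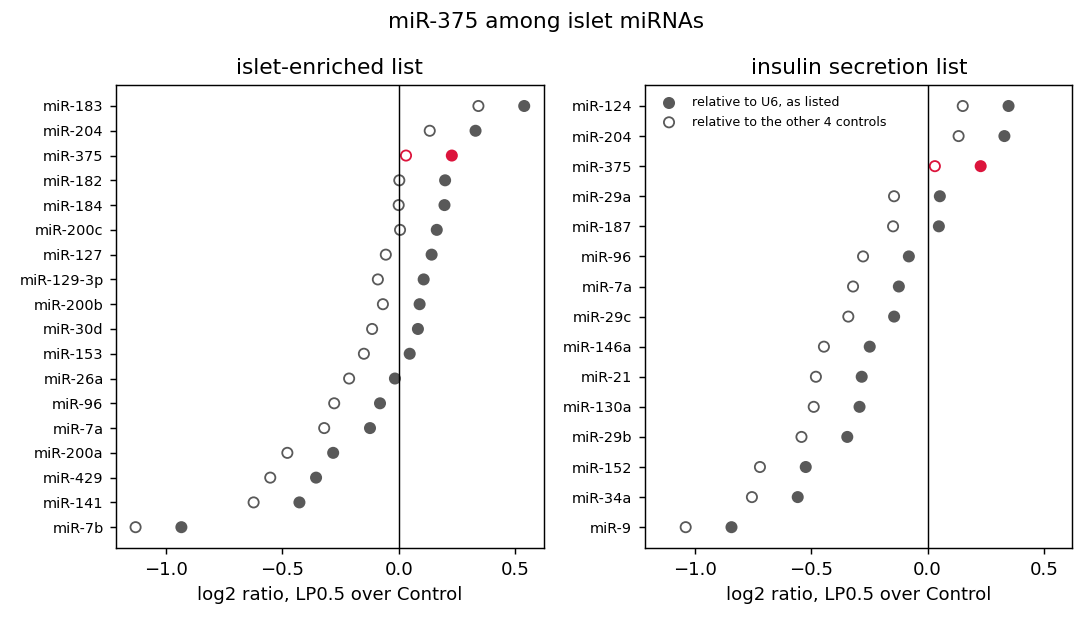
Log2 ratio (LP0.5 over Control, horizontal axis) of the 18 islet-enriched miRNAs and of the 15 insulin secretion miRNAs with a ratio, relative to U6 (filled) and to the other 4 controls (open). MiR-375, in red, has rank 3 from the top in both, at 0.23 and 0.03.

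Markers of other cells in an islet preparation did not share 1 direction, and their part in the miR-375 value was not tested. Of the 4 endocrine markers, miR-375 among them, 3 were above 1 relative to U6, beside 50.4% of the 528 miRNA names. Their median ratio was 1.16, with a range of 0.918 to 1.45. Relative to the other 4 controls, 2 of the 4 were above 1, beside 37.3% of the names. The 3 acinar markers had a median ratio of 0.970 and ran from 0.726 to 1.32. The only one above 1 was miR-217, the log2 average of 2 spots that disagreed. Its A set spot was listed at 1.83 and its B set spot just below 1. Both endothelial markers were below 1 relative to U6, at a median of 0.794, beside 49.6% of the names below 1. The 6 fibroblast and stellate markers had a median of 0.805 but ran from 0.403 to 7.14, with 5 of the 6 at least 1.5-fold from 1, beside 36.4% of the 528 miRNA names. Among these 5 was miR-143, at 0.459, the log2 average of 2 spots that disagreed, at 0.190 and 1.11. The 5 blood markers had a median of 1.20 and ran from 0.305 to 1.78. The lowest was miR-142-5p, while miR-142-3p was at 1.20. The 4 hepatocyte and muscle markers had a median of 1.30 and ran from 0.196 to 1.98. Of these, miR-1 was averaged from 2 spots at 0.962 and 2.12.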

How the data were processed

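Total RNA of islets was measured by TaqMan real-time PCR with FAM probes, per the labels' protocols. The authors deposited 1 linear ratio (fold) for each of 846 spots, per the file headers; limma is named, with no role or version, in the submitters' processing notes. A second deposited table gave spot names and 12 columns of per-sample values whose names match no sample label, so those columns were not used in any step. The planned limma test, raw cycles and abundance ranks were therefore not run, and no depth or interval can be given.

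Spots were joined by spot code, which also gave the A and B sets. Ratios were taken as log2, and several spots of 1 name were averaged on that scale. The 2 gene lists and the cell markers were matched by name without species prefix, with dme-miR-7 taken for miR-7a, miR-124a for miR-124, the unstarred names for miR-126-3p and miR-199a-5p, and the starred miR-126 for miR-126-5p. Named miRNAs were miR-375, the controls, list members and the 5 nearest spots, and miR-199a-3p, a marker. The members and lists were chosen with earlier results of these data known. Alternatives covered the reference and the spots compared. Rank and reference functions were tested on simulated data. Computation used pandas 2.3.3 and numpy 2.4.6 in Python 3.11.15, and figures were drawn with matplotlib 3.10.9. The hairpin is from RefSeq (GRCm38.p6).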

Additional observations from a re-analysis of the deposited data

How the results depend on the processing

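The miR-375 ratio of 1.17 moved by more than the SD of repeated control spots in the A set with snoRNA135, snoRNA202, U87 and Y1 as the reference, to 1.02, and to the same 1.02 without outlying U87 spots, since 0 of the U87 spots in the A set were outlying; the reference itself is what changes in this setting. With the median of the A set miRNA spots as the reference it was 1.20. The share of other miRNA spots below miR-375 was 72.9% in the A set, 68.5% over both sets, 75.3% among A set spots within 4-fold of 1 and 72.3% without starred strands. If the heading were reversed, these shares would be 27.1%, 31.5%, 24.7% and 27.7%. The list medians under other references, an alternative chosen after seeing the data, turned sign for the islet-enriched list only, from 0.09 to -0.10 on the log2 scale and to -0.12 without outlying U87 spots, while that of the insulin secretion list was -0.14 relative to U6 and -0.34 under both of these references. The alternatives planned for a test between groups and for raw cycles were not run. No paired analysis was possible because no per-sample value could be matched to a replicate number. For the same reason no sample could be left out in turn.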
